A study of Mus musculus with 8 samples.

Results

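The cytosolic ribosomal protein genes were taken as every gene of the deposited table whose symbol starts with Rpl or Rps followed by a digit, together with Rpsa, Rplp0, Rplp1 and Rplp2, leaving out the Rps6k kinases and symbols marked as pseudogenes. The rule gave 86 of the 23366 genes. Of these, 77 encode the canonical proteins of the ribosome (46 of the large and 31 of the small subunit), and 9 are paralogs or share only the name: Rpl3l, Rpl7l1, Rpl10l, Rpl22l1, Rpl36al, Rpl39l, Rps27l, Rps4y2 and Rps19bp1. Rps19bp1 encodes a nucleolar binding partner of a ribosomal protein, not a ribosomal protein itself. RefSeq lists the gene that the table calls Rps4y2 as a transcribed pseudogene. The rule used names alone and no measured value.

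Ribosomal proteins assemble with ribosomal RNA in the nucleolus into a small subunit, which reads the mRNA, and a large subunit, which joins the amino acids. Most canonical proteins are present in equal number in every ribosome, and their mRNAs are among the most abundant in a cell. Most of these mRNAs begin with a run of pyrimidines at the 5′ end, the TOP motif, through which mTOR signalling and the RNA-binding protein LARP1 set how strongly they are translated. In macrophages, LPS is known to change both transcription and translation within hours.

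RNA-seq was run on bone marrow-derived macrophages, cells grown in culture from mouse marrow, of the C57BL/6 background at passage 1. They were wild type or Lsd1SA/SA knock-in. Per the labels, the knock-in makes the histone demethylase LSD1 (gene Kdm1a) defective in phosphorylation. All cells went through 24 h of serum starvation before they were left untreated or given lipopolysaccharide (LPS, a bacterial cell wall component) for 2 h at 1 mg/ml as the labels state the dose. The groups are untreated wild type, wild type with LPS, untreated knock-in and knock-in with LPS, with 2 libraries each. The labels do not say whether the libraries of a group come from separate animals or cultures, so the tests measure only the spread between these libraries. In bulk RNA, fewer cells of a type and less RNA per cell cannot be told apart.

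The libraries held 40379258 to 55595160 reads, and all values are deposited signals in the form of CPM over a scaled library size. Before the results, the knock-in LPS libraries have to be set apart. Xist, the RNA of the inactive X chromosome, stood at 0.366 and 0.212 in them and at 315 to 437 in the other 6 libraries, and they held 4993 and 5122 reads of Y-linked genes against 0 to 2. They thus differ in sex-linked transcripts from every other library, the untreated knock-in included, and the labels give no sex. The 6 early LPS genes fixed as a check summed to 14822 and 15365 in wild type with LPS but to 185 and 181 in the knock-in LPS libraries, against 89.5 to 101 in the untreated libraries. Markers of stromal cells (13 genes) summed to 92.4 and 94.2 there against 29.1 to 36.9 elsewhere, and 11 of 12 tested were higher than in untreated knock-in. Mast cell and basophil markers summed to 89.2 and 92.2 there, with Mcpt4 and Tpsb2 at 0 everywhere. Their sums were 69.1 and 69.2 in wild type with LPS and 37.1 to 38.2 in the untreated libraries, so they were higher with LPS in both genotypes. All 14 macrophage markers were present and summed to 14511 and 13909 in the knock-in LPS libraries against 15541 to 19872 elsewhere, and 7 of them were lower and 4 higher than in untreated knock-in. Dendritic cell markers summed to 254 and 247 against 336 to 548, and B and T cell markers to 51.1 and 47.5 against at least 78.0 elsewhere. Every result below that involves the knock-in LPS libraries carries these differences, and their part in the results was not tested.

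The start sites show features the rule did not use. RefSeq start windows (GRCm38.p6) were found for 65 of the 86 genes. A run of at least 8 pyrimidines lay between 30 bases before and 50 bases after the annotated start in 50 of them (76.9%), against 32.3% of all genes with a window. In the window of 250 bases before to 50 after the start, CCGGAAG, the letters bound by ETS-type factors, was present in 40% against 9.93% of all genes (either strand), and GGGCGG (GC box) in 63.1% against 38.2%. AAGATGGC (YY1-type) was in 9.23% against 3.19%, and TATAAA in 10.8% against 15.7%. The following windows of 80 bases, 5′ to 3′, have the pyrimidine run in capitals. Rpl27a at chr7:109519135-109519214 (plus strand) shows the run at its longest extent among those printed, Rpl22l1 at chr3:28805448-28805527 (plus strand) and Rps27 at chr3:90213629-90213708 (minus strand) carry it across or just after the start, and Rps27l at chr9:66946026-66946105 (plus strand), the paralog of Rps27, carries it 14 bases before the start.
Rpl27a: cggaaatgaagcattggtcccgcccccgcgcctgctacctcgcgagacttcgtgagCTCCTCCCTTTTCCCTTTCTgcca
Rpl22l1: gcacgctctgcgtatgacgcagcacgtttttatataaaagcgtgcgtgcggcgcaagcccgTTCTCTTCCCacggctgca
Rps27: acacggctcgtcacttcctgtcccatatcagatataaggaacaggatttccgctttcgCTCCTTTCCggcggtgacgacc
Rps27l: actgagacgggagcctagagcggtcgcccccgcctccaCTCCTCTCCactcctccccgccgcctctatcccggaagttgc
The runs cover 20, 10, 9 and 9 bases, in that order. A match describes letters in a window and not a bound site, and RefSeq starts may differ from those used in macrophages.

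Of all palindromes of 10 bases, TCTCGCGAGA lay in the start windows of the most members, 6, and no other in more than 2. It was thus chosen from these sequences, and its carriers were Rpl10a, Rpl12, Rps28, Rpl26, Rps6 and Rps19 (9.23% of 65, against 0.525% of all genes). The element is shown in capitals because 3 of its carriers are among the 5 members with the lowest change in the knock-in LPS libraries. The windows are Rpl10a at chr17:28328499-28328578 (plus strand), Rpl12 at chr2:32961623-32961702 (plus strand), Rps28 at chr17:33824543-33824622 (minus strand), Rpl26 at chr11:68901505-68901584 (plus strand), Rps6 at chr4:86857374-86857453 (minus strand) and Rps19 at chr7:24884532-24884611 (plus strand).
Rpl10a: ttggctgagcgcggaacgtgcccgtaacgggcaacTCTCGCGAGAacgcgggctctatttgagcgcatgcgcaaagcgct
Rpl12: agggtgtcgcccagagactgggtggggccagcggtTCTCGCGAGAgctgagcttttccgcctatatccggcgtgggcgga
Rps28: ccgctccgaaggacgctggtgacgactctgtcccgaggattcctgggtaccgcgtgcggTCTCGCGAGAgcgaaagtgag
Rpl26: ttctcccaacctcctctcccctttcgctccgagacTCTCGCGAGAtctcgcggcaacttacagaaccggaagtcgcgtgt
Rps6: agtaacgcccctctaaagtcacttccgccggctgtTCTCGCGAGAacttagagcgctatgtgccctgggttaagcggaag
Rps19: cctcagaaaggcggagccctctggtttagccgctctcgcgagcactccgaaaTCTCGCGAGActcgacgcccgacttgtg
The element ends 22 bases before the annotated start of Rpl10a, 45 before that of Rpl12, 17 before that of Rpl26 and 42 before that of Rps6, and it spans the start of Rps28 and Rps19.

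Reads of the 86 genes made up 3.54% and 3.51% of all reads in untreated wild type, 3.15% and 3.28% in wild type with LPS, 3.60% and 3.76% in untreated knock-in, and 3.30% and 3.35% in knock-in with LPS. Exact 95% Clopper-Pearson intervals ran from 3.15% to 3.16% for the lowest share and from 3.76% to 3.77% for the highest, and they cover counting error only. As a share of reads, both LPS groups were thus below both untreated groups. The deposited values give another order for wild type, because the authors' library factors were 0.878 and 0.866 in wild type with LPS and 1.02 to 1.07 in the other libraries. On that scale the members summed to 33095 and 32821 in untreated wild type, 35893 and 37864 in wild type with LPS, 34009 and 35938 in untreated knock-in, and 32379 and 32888 in knock-in with LPS. With LPS the sum was higher in wild type and lower in the knock-in, and in neither genotype did the groups overlap.

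**Figure D1:**
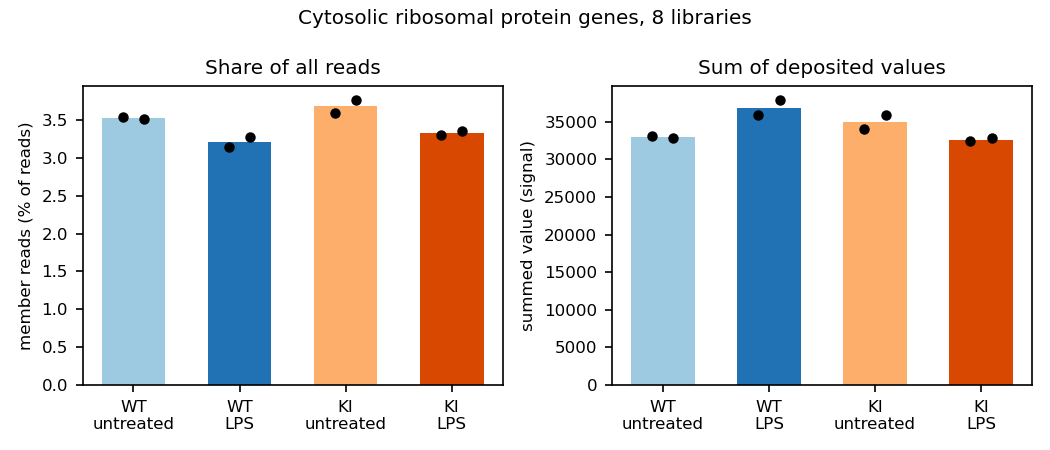
Left, reads of the 86 genes as a percentage of all reads; right, the sum of their deposited values (signal). Bars are group means and points the 2 libraries of a group. In wild type, LPS goes with a lower share of reads (3.15% and 3.28% against 3.54% and 3.51%) and a higher summed value (35893 and 37864 against 33095 and 32821); in the knock-in both measures are lower with LPS.

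LPS in wild type moved the genes little and together. Of the 84 genes with enough signal to test (Rpl10l had no read and Rpl3l at most 0.297), 64 passed as higher on the deposited scale and 0 as lower, but this direction turned with the scaling: 0 were higher and 47 lower in CPM without the library factors (over all genes 13.5% and 64.5%), and 2 higher and 72 lower after quantile normalization (21.3% and 38.9%). Passing means a limma adjusted p under 0.05 over the 11919 genes tested, of which 26.8% were higher and 30.7% lower. The median log2 change of the members was 0.17 on the deposited scale, with quartiles of 0.12 and 0.22, against -0.03 over all genes, with quartiles of -0.28 and 0.20. Set against the median of all genes, the members' median was above it by 0.20 on the deposited scale and by 0.18 without library factors, but below it after quantile normalization (-0.17). The members spread less than genes at large, with an interquartile range of 0.10 against 0.48. The same held between the untreated genotypes (0.09 against 0.15), so it is not particular to LPS. In 77 members the lowest value was at least 100, and genes of like level were not compared. Without wild type LPS replicate 2, 33 were higher.

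Beside the set, the ordering of its members can be read without the library factor. When each library was scaled to the geometric mean of the 77 canonical members, 3 members were higher with LPS in wild type (background 16.2%) and 2 were lower (47.5%). Rps14, a small subunit protein at the platform where mRNA leaves, was higher by 0.21 (log2, adjusted p = 0.0299), Rpl37a by 0.16 (0.0264) and Rps21 by 0.15 (0.0412), while Rpl4 was lower (-0.13, 0.0476) and so was Rps19bp1 (-0.25, 0.0196). These are 5 of 84 members, all under 0.26 in size. As deviations from its own mean on that scale, Rps14 was at 0.03 and -0.37 in untreated wild type replicates 1 and 2. With LPS it was at 0.03 and 0.03. Rps21 was at -0.03 and -0.15, then at 0.07 and 0.06 with LPS. Rpl37a was at -0.03 and -0.11, then at 0.09 and 0.09. The relative call for Rps14 thus rests on untreated wild type replicate 2, and that for Rps21 leans on it. On the deposited scale Rps14 stood at 345 and 257 in untreated wild type, 377 and 398 in wild type with LPS, 348 and 392 in untreated knock-in and 343 and 369 in knock-in with LPS. Its LPS change in wild type was 0.38 ± 0.082 (SE), limma adjusted p = 0.000358, and 1 untreated library is well below its partner: without untreated wild type replicate 2 the change was 0.17 (adjusted p = 0.0255), and without replicate 1 it was 0.59.

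Rpl37a, a zinc-binding large subunit protein, stood at 261 and 242 in untreated wild type, 308 and 324 in wild type with LPS, 277 and 308 in untreated knock-in and 232 and 261 in knock-in with LPS. It changed by 0.33 ± 0.058 (SE), limma adjusted p = 3.04e-05, and the wild type groups did not overlap; in CPM without library factors the change was 0.04 and after quantile normalization -0.12, neither of them past the threshold. Rps21, a small subunit protein, changed by 0.32 ± 0.058 (SE), limma adjusted p = 3.77e-05, again with no overlap, and by 0.03 under both of those scalings. The change of Rpl22l1, the paralog of Rpl22, was 0.33 ± 0.1 (SE), limma adjusted p = 0.00826, but 0.16 (adjusted p = 0.217) without untreated wild type replicate 2. Rps4y2 changed by 0.29 ± 0.12 (SE), limma adjusted p = 0.0338, and lost the call without untreated replicate 1 (0.23, adjusted p = 0.173) or LPS replicate 1 (0.24, 0.162). The other high values were no larger than 0.29.

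In the knock-in the members went in both directions with LPS. On the deposited scale 35 were lower (background 28.3%) and 10 higher (28.5%), with a median of -0.10 against 0.02 over all genes. The lower calls led under quantile normalization (40 lower, 10 higher, over all genes 28.9% and 27.8%), median-of-ratios scaling (34 and 11) and without library factors (49 and 8, over all genes 31.9% and 24%). Relative to the canonical members themselves 11 were lower (18.8%) and 20 higher (38.3%), which by construction centres the set. Among the 11 members lower under all 5 scalings were Rpl10a, Rpl22l1, Rpl3, Rpl12, Rps28, Rpl10, Rpl21, Rpl32, Rpl39 and Rps7. Higher under all 5 were Rps19bp1, Rps4y2, Rpl9, Rps27, Rps20, Rps27l and Rpl7, and also Rpl39l, which entered the test only through the knock-in LPS libraries. Without untreated knock-in replicate 2 the members' median was -0.05 on the deposited scale, and without knock-in LPS replicate 1 it was -0.08. The median over all genes was 0.02 in both cases. Lower calls were then about as frequent among the members as among all genes.

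**Figure D2:**
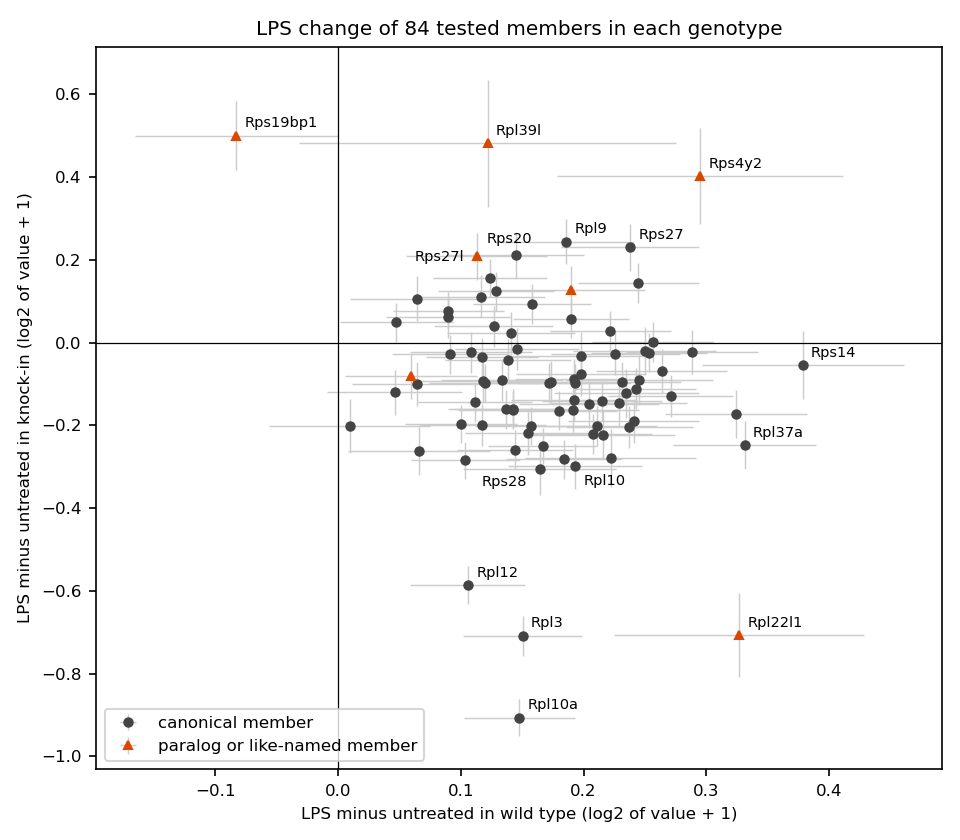
Each point is 1 of the 84 tested members; the x axis is its LPS change in wild type and the y axis that in the knock-in, both as log2 of value + 1 on the deposited scale, with SE bars. Changes in wild type lie between -0.08 and 0.38 and turn with the scaling of the libraries, while 4 members (Rpl12, Rpl3, Rpl22l1, Rpl10a) lie between -0.59 and -0.91 in the knock-in.

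The lowest was Rpl10a, a large subunit protein at the L1 stalk, where spent tRNA leaves. It stood at 333 and 330.2 in untreated wild type, 360.1 and 375 in wild type with LPS, 351 and 366 in untreated knock-in and 190.1 and 192 in knock-in with LPS. The knock-in LPS libraries were well below the other 6, which lay between 330.2 and 375. Its LPS change in the knock-in was -0.91 ± 0.045 (SE), limma adjusted p = 2.10e-14, and -0.79 relative to the canonical members. Rpl3, which reaches towards the peptidyl transferase centre, stood at 668 and 615 in untreated wild type, 695 and 729 in wild type with LPS, 679 and 710.0 in untreated knock-in and 421 and 428 in knock-in with LPS. Here too both knock-in LPS libraries were below all others, and the change was -0.71 ± 0.048 (SE), limma adjusted p = 8.42e-12.

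Rpl12, which lies at the base of the stalk that recruits elongation factors, stood at 394 and 398 in untreated wild type, 417 and 435 in wild type with LPS, 393 and 423 in untreated knock-in and 269 and 274 in knock-in with LPS. It changed by -0.59 ± 0.047 (SE), limma adjusted p = 1.57e-10, again with the knock-in LPS libraries lowest. Rpl22l1, at 15.1 and 11.9 in untreated wild type, 16.8 and 17.4 in wild type with LPS, 15.0 and 14.7 in untreated knock-in and 9.32 and 8.13 in knock-in with LPS, changed by -0.71 ± 0.1 (SE), limma adjusted p = 2.72e-06. Its ratio to Rpl22, the RNA-binding large subunit protein it resembles, was 0.0898 on average in untreated wild type, 0.104 in wild type with LPS, 0.0952 in untreated knock-in and 0.0576 in knock-in with LPS. Rpl22 itself was at 153 and 159 in untreated knock-in and 152 and 151 with LPS (-0.04 ± 0.051 (SE), limma adjusted p = 0.507).

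Smaller drops followed. Rps28, a small protein at the mRNA exit channel, went from 227 and 257 to 184 and 207 with LPS in the knock-in (-0.31 ± 0.062 (SE), limma adjusted p = 0.000211). Rpl10, the X-linked protein that is among the last to join the large subunit and allows it to enter translation, went from 809 and 849 to 669.9 and 677 (-0.30 ± 0.055 (SE), limma adjusted p = 6.35e-05). The groups of both genes did not overlap. The remaining called members were between -0.28 and -0.13, among them Rpl21 (-0.28), Rpl32 (-0.28) and Rps7 (-0.25). Of the carriers of TCTCGCGAGA, Rpl10a, Rpl12, Rps28 and Rpl26 (-0.14, adjusted p = 0.0173) were lower, while Rps6 was at -0.12 (0.0670) and Rps19 at -0.02 (0.790). Their median was -0.22. Lower calls thus made up 66.7% of the carriers, against 28.3% of all genes and 41.7% of the 84 tested members. The element was shown because of these same changes, so they cannot serve to test a link with it. The call for Rpl26 was lost without either knock-in LPS library (adjusted p = 0.0745 and 0.0643) and without untreated knock-in replicate 2 (0.321).

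**Figure D3:**
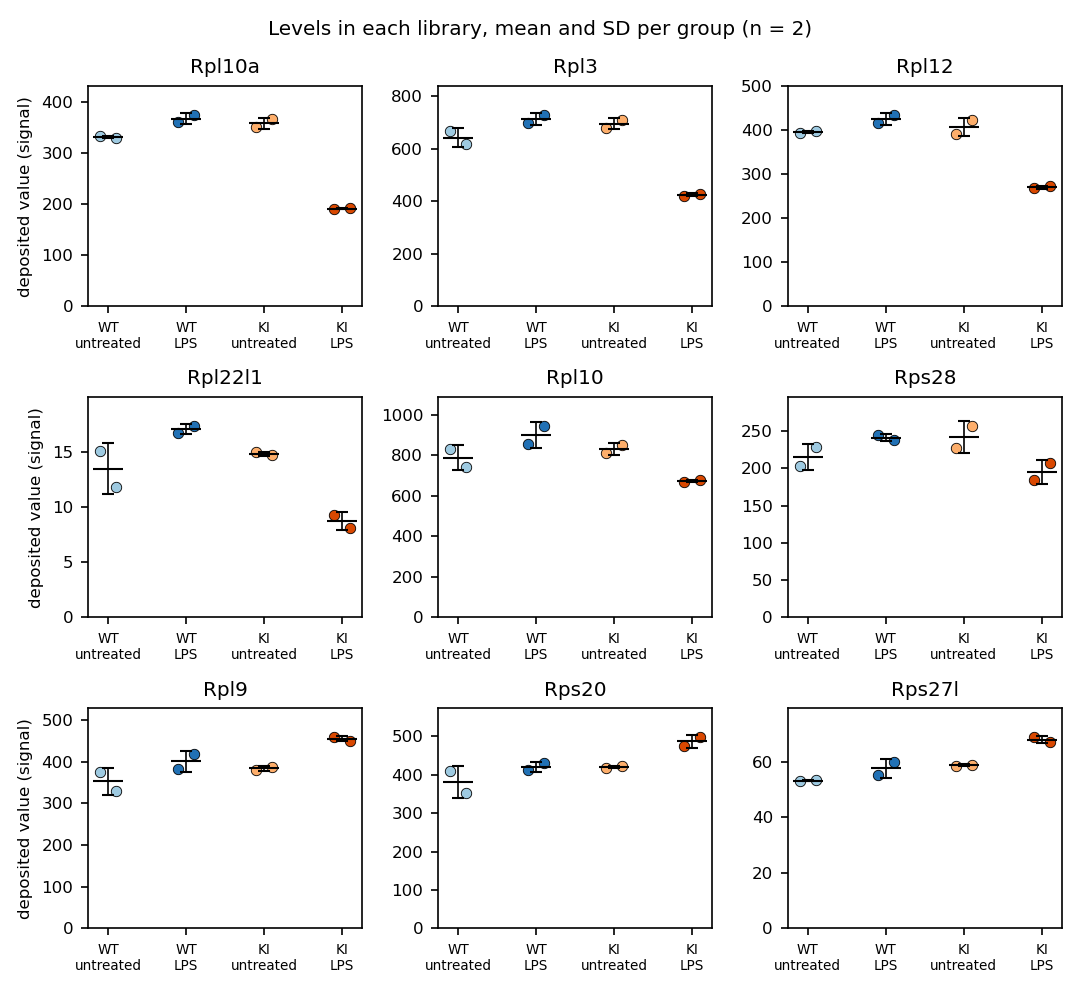
Deposited values (signal, axis from 0) of 9 members in each of the 8 libraries, with mean and SD per group (n = 2). The knock-in LPS libraries are the lowest for Rpl10a (190.1 and 192), Rpl3, Rpl12, Rpl22l1 and Rpl10, and the highest for Rpl9 (460.4 and 451), Rps20 and Rps27l.

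Among the genes that rose in the knock-in, Rps19bp1 had the largest change on the log2 of value + 1 scale, from 15.1 and 15.8 to 23.0 and 21.5 (0.50 ± 0.083 (SE), limma adjusted p = 1.78e-05), and it was at 14.9 and 15.1 and 13.6 and 14.7 in untreated and LPS-treated wild type. Its product binds RPS19 and also regulates the deacetylase SIRT1. Rpl39l, a paralog of Rpl39 known mainly from testis, was near the detection limit at 0.427 and 0.555 in untreated wild type, 0.704 and 0.543 in wild type with LPS, 0.712 and 0.591 in untreated knock-in and 1.14 and 1.48 in knock-in with LPS. It passed the filter on low values only through the knock-in LPS libraries, so its change (0.48 ± 0.15 (SE), limma adjusted p = 0.0104, and 1.01 by edgeR on the recovered reads) describes libraries that admitted it, and it lost the call without untreated knock-in replicate 2 (adjusted p = 0.0738). Rps4y2 went from 6.59 and 7.38 to 8.39 and 10.8 (0.40 ± 0.12 (SE), limma adjusted p = 0.00525), and lost the call without untreated knock-in replicate 1 (0.0639) or knock-in LPS replicate 2 (0.167).

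Of the canonical proteins, 6 rose in the knock-in: Rpl9, Rps27, Rps20, Rpl7, Rpl15 and Rpl18. Rpl9, a large subunit protein, stood at 375 and 330.4 in untreated wild type, 383 and 419 in wild type with LPS, 381 and 389 in untreated knock-in and 460.4 and 451 in knock-in with LPS. It changed by 0.24 ± 0.055 (SE), limma adjusted p = 0.000570, with the knock-in LPS libraries above all others. Rps20, a protein of the head of the small subunit, stood at 411 and 352 in untreated wild type, 412 and 429.7 in wild type with LPS, 418 and 423 in untreated knock-in and 475 and 499 in knock-in with LPS. It changed by 0.21 ± 0.056 (SE), limma adjusted p = 0.00263, and the groups did not overlap. Rps27, a zinc-finger protein of the small subunit, went from 213 and 229.5 to 251 and 268 (0.23 ± 0.056 (SE), limma adjusted p = 0.00131), and its p53-responsive paralog Rps27l from 58.5 and 59.0 to 69.0 and 67.0 (0.21 ± 0.057 (SE), limma adjusted p = 0.00358). The ratio of the paralog to Rps27 was 0.266 on average in untreated knock-in and 0.262 with LPS. Rpl7 changed by 0.16 ± 0.046 (SE), limma adjusted p = 0.00642, and the adjusted p was 0.0530 without untreated knock-in replicate 1 and 0.0505 without knock-in LPS replicate 1.

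The same split appears when each canonical member is set against the others within a library. The deviations of the 77 members from their own means had an SD of 0.143 and 0.142 (log2) in the knock-in LPS libraries and of 0.0502 to 0.0611 in 5 of the other 6. The remaining library, untreated wild type replicate 2, had an SD of 0.121, with Rps26 highest at 0.32 and Rps14 lowest at -0.37. It also differed from its partner by an SD of 0.130 over members, against 0.0405 to 0.0606 for the other pairs. In the knock-in LPS libraries Rpl10a was at -0.57 and -0.59, and the highest were Rpl9 at 0.31 in replicate 1 and Rps27 at 0.29 in replicate 2. The balance among members was thus widest in the knock-in LPS libraries and in 1 untreated wild type library.

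**Figure D4:**
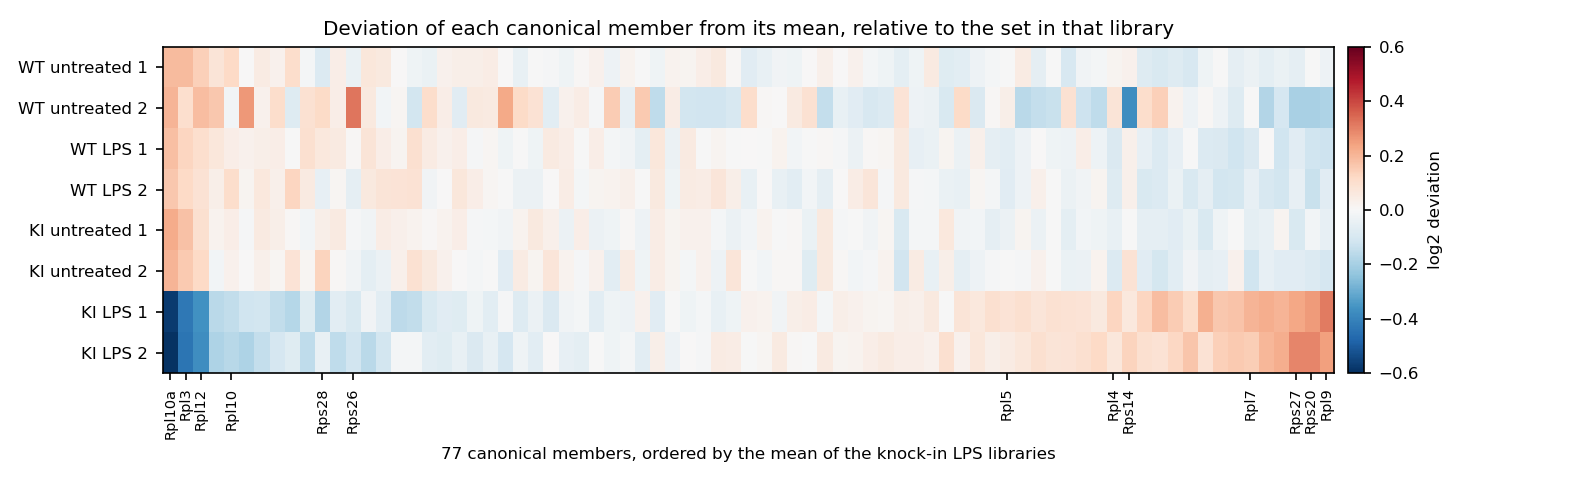
Colour gives the log2 deviation of each of the 77 canonical members (columns; columns are labelled for 13 of them) from its mean over the 8 libraries (lines), after each library was centred on the geometric mean of the members. Rpl10a, Rpl3 and Rpl12 are lowest in both knock-in LPS libraries (Rpl10a at -0.57 and -0.59), and untreated wild type replicate 2 shows a pattern of its own (Rps14 at -0.37).

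Without LPS the knock-in did not differ from wild type by the test: 0 members were higher (background 0.00839%) and 0 lower (background 0). At an unadjusted p under 0.05 there were 36 of 84 members, against 13.6% of all genes. Of the estimates, 73 of the 84 were above 0, and the median was 0.10. The quasi-likelihood test of edgeR called 0 members, and DESeq2 called 4 higher, against 0.227% of all genes. Rpl37 came nearest, at 237 and 229 in wild type and 268 and 278 in the knock-in (0.23 ± 0.049 (SE), limma adjusted p = 0.0848). Rps21 (0.23 ± 0.058 (SE), limma adjusted p = 0.127) and Rps14 (0.31 ± 0.082 (SE), limma adjusted p = 0.140) followed. Removing untreated wild type replicate 1 leaves the library that stands apart as the lone untreated wild type sample. The members' median was then 0.11 against -0.01 over all genes, and calls rose among the members and over all genes. The members with the lowest estimates, Rps6 (-0.06), Rps26 (-0.06) and Rpl35 (-0.04), had adjusted p of 0.652, 0.743 and 0.822.

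With LPS, 57 members were lower in the knock-in than in wild type (background 36.8%) and 8 higher (38.5%) on the deposited scale, a direction that turned to 28 higher and 14 lower without library factors (over all genes 53.4% and 25.6%) and to 60 higher and 4 lower after quantile normalization (43% and 31.8%). The median was -0.17 against 0.02 over all genes, and 0.05 against 0.23 without library factors. Relative to the canonical members 15 were lower (26.2%) and 20 higher (49.7%). Rpl10a (-0.94 ± 0.045 (SE), limma adjusted p = 3.11e-15), Rpl22l1 (-0.90 ± 0.1 (SE), limma adjusted p = 2.88e-08), Rpl3 (-0.74) and Rpl12 (-0.65) were lower under all 5 scalings. After quantile normalization the values were -0.58 for Rpl10a, -0.96 for Rpl22l1 and -0.28 for both Rpl3 and Rpl12. Rps19bp1 (0.62 ± 0.083 (SE), limma adjusted p = 3.77e-07), Rps27l (0.24), Rps20 (0.21), Rpl9 (0.19) and Rpl18 (0.14) were higher under all 5, as was Rpl39l, which entered the test only through the libraries in which it is high. Rpl10 was at -0.42 (adjusted p = 3.08e-07), and at 0.12 (0.0525) after quantile normalization. The estimate for Rps4y2, 0.32, was 0.16 (0.318) without knock-in LPS replicate 2.

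The difference between the 2 LPS responses was tested as an interaction: the wild type change was subtracted from the knock-in change. It was below 0 and past the threshold for 57 members and above 0 for 1 (31.8% of all genes in each direction) on the deposited scale, against 18 and 14 without library factors (over all genes 20% and 48.4%) and 7 and 37 after quantile normalization (26.5% and 35%). The values were -1.05 ± 0.064 (SE), limma adjusted p = 6.55e-13 for Rpl10a, -1.03 ± 0.14 (SE), limma adjusted p = 1.22e-06 for Rpl22l1, -0.86 for Rpl3, -0.69 for Rpl12 and -0.58 for Rpl37a. Of the 9 members above 0, Rps19bp1 was the 1 past the threshold (0.58 ± 0.12 (SE), limma adjusted p = 0.000142). Rpl10a, Rpl12, Rpl22l1, Rpl3 and Rps21 were below 0 and Rps19bp1 above 0 under all 5 scalings, with values after quantile normalization of -0.69 for Rpl10a, -0.36 for Rpl3 and -0.29 for Rpl12. That of Rpl37a was -0.19 there (adjusted p = 0.0594). The genotype comparisons and the LPS comparisons share these libraries, so they are not independent of each other.

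The 3 stalk proteins that recruit translation factors were all higher with LPS in wild type on the deposited scale: Rplp0 by 0.25, Rplp1 by 0.19 and Rplp2 by 0.29 (adjusted p of 6.45e-05, 0.00344 and 6.33e-05), but all 3 were lower after quantile normalization and none passed without library factors or relative to the canonical members. In the knock-in Rplp1 was lower (-0.16, 0.0119), and it lost the call without untreated knock-in replicate 2 (0.205) or knock-in LPS replicate 1 (0.101). Rplp0 and Rplp2 were both at -0.02. The 4 X-linked members Rpl10, Rpl36a, Rpl39 and Rps4x were all higher with LPS in wild type on the deposited scale, with a median of 0.22 that turned to -0.23 after quantile normalization and -0.08 without library factors. The stalk and X-linked counts in wild type stand beside 26.8% of all genes and 76.2% of the tested members called higher on the deposited scale. All 4 X-linked members were lower in the knock-in, with a median of -0.24, against 28.3% of all genes and 41.7% of the tested members. Relative to the canonical members 2 of them were lower too (18.8% of all genes). Rpl36a lost the call without knock-in LPS replicate 1 (-0.16, adjusted p = 0.0568). They are named apart because the knock-in LPS libraries differ in sex-linked transcripts. Rps4x, for example, stood at 708 and 711 in untreated knock-in and 619 and 613 with LPS.

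Rpl5 and Rpl11, which form the 5S particle and bind MDM2, differed in their calls. Rpl5, with a coefficient of variation of 2.73% over the group means, stood at 577 and 580.4 in untreated wild type, 602 and 631 in wild type with LPS, 581 and 629 in untreated knock-in and 592 and 592 in knock-in with LPS. Rpl11 was lower in the knock-in with LPS (-0.14 ± 0.046 (SE), limma adjusted p = 0.0106), though not without untreated knock-in replicate 2 (0.147) or knock-in LPS replicate 1 (0.0565). Of the 7 members linked to MDM2, 3 were higher in wild type on the deposited scale (26.8% of all genes). Without library factors 6 were lower there (64.5% of all genes). In the knock-in 3 were lower and 1 higher (28.3% and 28.5% of all genes). On the deposited scale the smallest coefficient was that of Rpl4 (1.99%), at 919 and 939.6 in untreated wild type, 932 and 989 in wild type with LPS, 907 and 936 in untreated knock-in and 963 and 944 in knock-in with LPS, and Rpl30 had 3.03%. Relative to the canonical members Rpl4 was not steady, being lower with LPS in wild type (-0.13) and higher in the knock-in (0.16, limma adjusted p = 0.0153). Rpl10a (26.4%), Rpl22l1 (26.1%) and Rps19bp1 (22.4%) varied most among members with a value of at least 5 in every library. By subunit, 19 of 46 canonical large and 15 of 31 small subunit members were lower in the knock-in (41.3% and 48.4%), against 28.3% of all genes.

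Per kilobase of coding sequence, levels could be compared between genes. The length was that of the longest coding model of each gene in GENCODE, which may be longer than the form made in these cells. Rpl41, the shortest member by this measure with a longest coding model of 141 bases, was highest. It stood at 3949, 4280.4, 4222 and 3676 in untreated wild type, wild type with LPS, untreated knock-in and knock-in with LPS, in that order. Rplp1 had 2078, 2374, 2288 and 2042 and Rps29 1948, 2349.5, 2161 and 1975. Rpl41 lay well above both in every group. The paralogs were low: Rpl22l1 had 36.6, 46.3, 40.2 and 23.6 against 387, 426, 403 and 392 for Rpl22, and Rpl7l1 87.1, 99.4, 95.9 and 105. Short genes are counted with their untranslated ends, which this measure leaves out.

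The table does not tell strands apart as far as is known, and 24 members overlap a gene on the other strand. Rpl10a, Rpl3, Rpl12, Rpl22l1 and Rps28, the 5 lowest in the knock-in LPS libraries, are all among them. Of the 24, 12 (50%) were lower there, against 28.3% of all genes. Of the 55 tested members with no overlap 23 (41.8%) were lower, and the lowest was at -0.30. The partners of these 5 that the table holds are 3. Lrsam1, opposite Rpl12, stood at 22.4 and 23.5 in untreated knock-in and 20.2 and 20.9 with LPS (-0.15 ± 0.076 (SE), limma adjusted p = 0.0948). Syngr1, opposite Rpl3, stood at 129 and 144 and 112 and 129.8 (-0.18 ± 0.081 (SE), limma adjusted p = 0.0705). Kank3, opposite Rps28, stood at 13.2 and 13.5 and 14.2 and 13.7. The overlapped genes of Rpl10a and Rpl22l1 were not analysed here. The part of overlap in these values was not tested. Within the bounds of 30 members lie 58 small nucleolar RNAs. Of these 30, 14 (46.7%) were lower in the knock-in, against 21 of the other 54 (38.9%) and 28.3% of all genes.

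Other genes of protein synthesis were given from lists, whose counts stand beside 26.8% of all genes higher and 30.7% lower in wild type and 28.5% and 28.3% in the knock-in (13.5%, 64.5%, 24% and 31.9% without library factors). Of the ribosome-linked genes outside the name rule, Fau, which encodes a fusion protein holding a ribosomal protein, and Gnb2l1, which encodes the RACK1 scaffold, were both higher in wild type with LPS on the deposited scale (0.19 and 0.23) and both lower after quantile normalization. In the knock-in Fau was at 0.09 and Gnb2l1 at -0.08 (limma adjusted p = 0.180 and 0.228). Of 21 other TOP mRNAs, 13 were higher and 0 lower in wild type on that scale, which turned to 1 higher and 11 lower without library factors. In the knock-in 0 were higher and 10 lower (0 and 13 without library factors), among them Eef2 (-0.46), the translocation factor of elongation, and Eif4b (-0.37), a helper of initiation. Elongation genes counted 11 higher and 1 lower of 14 in wild type, against 2 and 5 without library factors, and 2 higher and 6 lower in the knock-in. Initiation genes counted 20 higher and 5 lower of 37 in wild type, against 5 and 21 without library factors, and 10 higher and 13 lower in the knock-in.

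The mitochondrial ribosomal proteins, which build a separate ribosome, differed from the cytosolic ones in count: of 76, 6 were higher and 25 lower with LPS in wild type, and 50 were higher and 1 lower in the knock-in, with medians of -0.07 and 0.25. Over the 5 scalings their medians ran from -0.36 to -0.04 in wild type and from 0.20 to 0.36 in the knock-in. With LPS, 61 of them were higher in the knock-in than in wild type and 5 lower (38.5% and 36.8% of all genes), led by Mrpl2 (1.13). Ribosome biogenesis genes (82) were 20 higher and 14 lower in wild type, which is 24.4% and 17.1% against 26.8% and 30.7% of all genes (7 and 59 without library factors, where 13.5% and 64.5% of all genes were called), and 40 higher and 4 lower in the knock-in, among them Tcof1 (0.61), which supports transcription of ribosomal DNA. RNA polymerase I genes (13 tested) were 7 higher and 2 lower in the knock-in. Of the 24 mTOR and TOP regulators, 4 were higher and 10 lower in wild type and 5 and 7 in the knock-in. Larp1 was higher by 0.96 in wild type and by 0.41 in the knock-in, and Myc, a driver of ribosomal gene transcription, was higher in wild type (1.52) and lower in the knock-in (-1.76), each with the same sign under all 5 scalings. Noncoding hosts of small nucleolar RNAs (10 tested) were 2 higher and 3 lower in the knock-in. No test of these differences between lists was made.

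**Figure D5:**
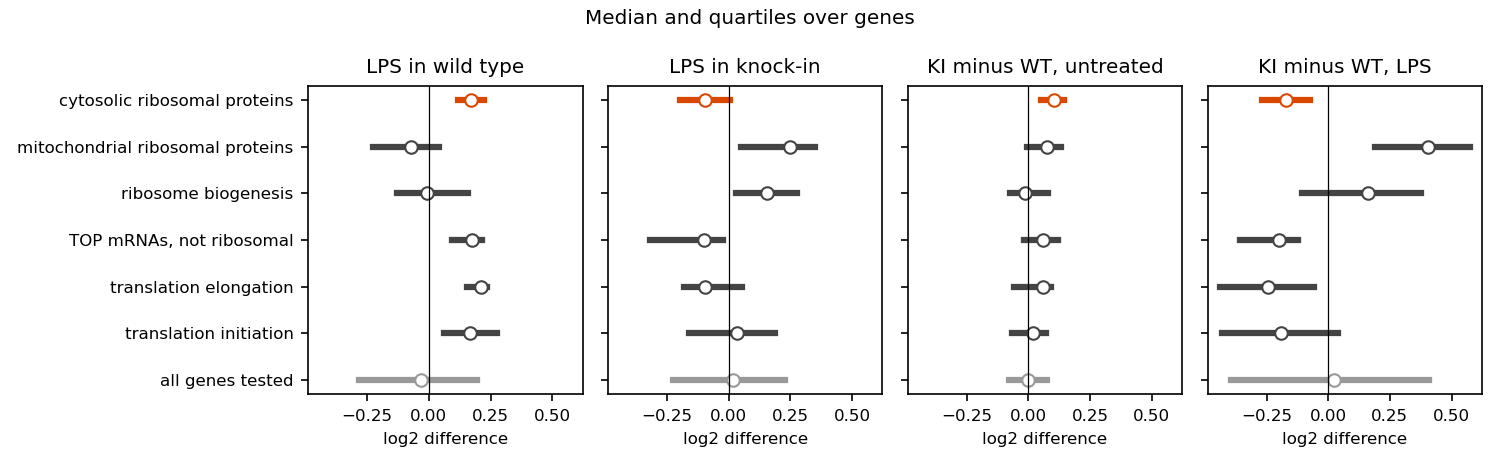
Median (circle) and quartiles (bar) of the log2 difference over the genes of 6 lists and over all 11919 genes tested, in 4 comparisons on the deposited scale. Cytosolic ribosomal protein genes have medians of 0.17 and -0.10 with LPS in wild type and knock-in, mitochondrial ones -0.07 and 0.25; medians that involve wild type with LPS shift with the library scaling, and without library factors that of the cytosolic genes in wild type is -0.12.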

How the data were processed

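RNA-seq of 8 libraries in 4 groups was used as 1 deposited table. Its values are a signal that the authors made from read counts: each column steps in whole multiples of 1 read, all values above 0 being whole (100%) within a tolerance of 0.001, and the steps have the form of CPM over a library size times a normalization factor. Per the submitters' processing notes, the tools were edgeR, bedtools and TopHat2 2.0.9, on mm9; no source used here gives the counting rule, strand or filters.

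The test was limma 3.58.1 (R 4.3.3; eBayes, trend, 2-sided) on log2(value + 1), so fold changes of low genes are understated. Genes with a value of at least 1 in at least 2 libraries entered (11919), all 8 libraries in 1 model of 4 group means, with Benjamini-Hochberg adjustment over all genes tested. edgeR 4.0.16 and DESeq2 1.42.0 were run on the recovered reads: edgeR's quasi-likelihood test called 3528 genes higher and 3314 lower for LPS in wild type. The limma script was tested on simulated data of 11708 genes, for LPS in wild type. In these, 33 or 34 genes per size and direction were changed. It recovered 100% of genes changed by 0.6 or 1 and 63.6% and 73.5% of those changed by -0.3 and 0.3 (log2). The changed genes were all drawn from those with many reads. Every gene had the same simulated spread, and no library factors were simulated. The simulation thus does not cover low genes such as Rpl39l, a library that stands apart, or the choice of scaling. Other alternatives were pseudocounts, filters, scalings, each library left out and a replicate block. 3 were added after seeing the data: no library factors, scaling to the canonical members, and leaving out both knock-in LPS libraries.

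Members and lists were chosen with earlier results of these data known. Named genes were, per comparison, the 5 largest changes each way past the threshold without group overlap (or the 3 smallest p), members with paralogs or defined roles, the 3 most and least variable, the 3 highest per coding length and up to 4 genes a list; Rpl21, Rpl32, Rpl18, Rpl15 and the overlapping genes were named after their values were seen. Some genes are not reported here. GENCODE M21 and RefSeq (GRCm38) gave overlaps, coding lengths and start windows; no mm9 coordinates are given.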

Additional observations from a re-analysis of the deposited data

Results flagged for a closer look

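The LPS change of 6 members differed between the genotypes by the interaction test (knock-in change minus wild type change, log2): -1.05 for Rpl10a, -1.03 for Rpl22l1, -0.86 for Rpl3, -0.69 for Rpl12, -0.58 for Rpl37a and 0.58 for Rps19bp1. Over the 84 tested members 57 had an interaction below 0 and 1 above 0 past the threshold on the deposited scale, against 18 and 14 without library factors. The value of Rpl37a was -0.29 relative to the canonical members and -0.19 after quantile normalization, where it did not pass (adjusted p = 0.0594). The knock-in LPS libraries also differ from all others in Xist and Y-linked reads and hardly show the early LPS genes, and the part of this in the interaction was not tested.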

How the results depend on the processing

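Counts of members called (higher and lower, in that order) moved with scaling, except untreated, where each of the 5 scalings gave 0 and 0. Quantile normalization gave 2 and 72 for LPS in wild type, 60 and 4 for knock-in against wild type with LPS, and 37 and 7 for the interaction; no library factors gave 0 and 47, 28 and 14, and 14 and 18. Scaling to the canonical members gave 3 and 2 (LPS in wild type), 20 and 11 (LPS in knock-in), 20 and 15 (genotype with LPS) and 14 and 8 (interaction). Without library factors the median of all genes shifted to -0.30 for LPS in wild type, 0.23 for genotype with LPS and 0.24 for the interaction; scaling to the members shifted them to -0.19, 0.20 and 0.28, and that for LPS in knock-in to 0.12. Leaving out 1 library gave 33 to 64 and 0 to 1 for LPS in wild type, 6 to 12 and 21 to 39 for LPS in knock-in, 0 to 22 and 0 to 1 for the untreated genotype comparison (DESeq2 4 higher, robust trend 1), 4 to 8 and 40 to 59 for genotype with LPS, and 1 to 2 and 50 to 62 for the interaction; lone libraries were assumed to vary like the other groups. Without the paralog-like members the higher counts were 6 (LPS in knock-in), 4 (genotype with LPS) and 0 (interaction), since fewer genes were counted. Under quantile normalization the members above 0 fell from 83 to 6 of 84 for LPS in wild type. For genotype with LPS they rose from 15 to 75. For LPS in knock-in, each tested member chosen by the naming rule was checked gene by gene. In the other comparisons only the members named for that comparison were. Of those called on the deposited scale, Rps14 (-0.054) and Rpl37a (-0.12) changed sign for LPS in wild type, and Rpl10 (0.12) for genotype with LPS. The replicate block gave 68 and 0, 10 and 35, 0 and 0, 8 and 57, and 1 and 60 in the 5 comparisons, in the order LPS in wild type, LPS in knock-in, genotype untreated, genotype with LPS, interaction; the labels do not say that a number marks a shared source, and deviations of same-numbered libraries correlated at -0.08 to 0.09 over all genes and -0.35 to 0.33 over the members in the 6 group pairs, so the numbers were not taken to pair the samples. Without both knock-in LPS libraries LPS in wild type gave 63 and 0. For other causes of these shifts, the cause was not tested. Low depth limits Rpl39l; Rpl10l and Rpl3l were not tested.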
